A study of Arabidopsis thaliana with 12 samples.

Results

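Polycomb group (PcG) proteins keep genes silent that a plant tissue does not use, and they work in complexes that modify histones. Polycomb repressive complex 1 (PRC1) of Arabidopsis thaliana carries the RING1 and BMI1 proteins and places monoubiquitin on histone H2A (H2AK121ub), whereas Polycomb repressive complex 2 (PRC2) carries a methyltransferase, CLF or SWN in the vegetative plant, and places H3K27me3. In seedlings both are known for shutting off the seed maturation programme after germination and for holding floral and meristem genes silent in leaves and roots.

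Here ring1ab, a mutant of the PRC1 genes RING1A and RING1B, was set directly against clf28swn7, a mutant of the PRC2 methyltransferase genes CLF and SWN, across all genes of the deposited RNA-seq table. The comparison takes 6 of the 12 libraries of the table, 3 per genotype, which the study's methods describe as biological replicates made independently. Whole seedlings of the Col-0 background were collected 10 days after germination from long-day cultures on sucrose-containing MS agar. No treatment other than the mutations separated the genotypes, and 3 WT (Col-0) libraries of the same age served only as a level beside the mutants. The ring1ab mutant is a weak line that forms leaves and flowers, while clf28swn7 remains embryonic above ground and makes a stunted root with embryonic traits. A value from whole seedlings therefore cannot tell fewer cells of a type from less RNA per cell. The table gives FPKM, the number of fragments scaled by gene length and by library size. On the log2(FPKM + 1) scale limma tested 20551 of 33602 genes, which were those reaching 1 FPKM in 3 or more of the 6 libraries. All log2 fold changes are ring1ab minus clf28swn7 on that scale, which understates the change of genes with a low FPKM, and a gene was called where its log2 fold change reached 1 in either direction with p, before adjustment, below 0.05.

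By an estimate from 8472 genes with 1 exon and 1 transcript, the ring1ab libraries held between 18.9 M and 21.7 M fragments (M for mega) and the clf28swn7 libraries between 14.1 M and 15 M, so low values are coarser in clf28swn7. The correlation of log2(FPKM + 1) between libraries was between 0.98 and 0.99 within ring1ab, 0.99 within clf28swn7, and between 0.80 and 0.84 across the 2 genotypes. Plastid-encoded genes summed to 915, 2170 and 6754 FPKM in ring1ab, against 252, 223 and 221 FPKM in clf28swn7, and between 1291 and 15951 FPKM in WT, a wide spread among replicates. When levels were rescaled without organelle genes and the abundant lists, 2722 genes were called higher and 1651 lower.

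The mutated genes were read first. CLF (chr2:9955092-9960386, plus strand) had 7.62, 8.17 and 7.78 FPKM in ring1ab, against 0.511, 0.224 and 0.169 FPKM in clf28swn7. SWN had 18.5, 16.4 and 16.9 FPKM in ring1ab, against 3.8, 3.62 and 3.36 FPKM in clf28swn7. RING1B had 0.426, 0.377 and 0.859 FPKM in ring1ab, against 16.3, 15.9 and 15.1 FPKM in clf28swn7. These 3 genes were low in the libraries labelled as their mutants. RING1A (chr5:17835810-17839303, minus strand) went the other way, with 201, 183 and 182 FPKM in the libraries labelled ring1ab, against 12.7, 11.6 and 13.1 FPKM in clf28swn7 and between 4.03 and 5.58 FPKM in WT. An FPKM over the whole gene does not tell an intact from a mutated transcript. RING1A overlaps the end of its neighbour AT5G44270 on the other strand, and the use of strand in the counting was not stated. Whether this overlap bears on the RING1A level was not tested.

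Of the 20551 tested genes, 2495 were called higher in ring1ab (12.1%) and 1848 were called lower (8.99%). Over the tested genes, log2 fold changes had a median of -0.01. When the p threshold was applied after Benjamini-Hochberg adjustment, 2489 genes were higher and 1847 lower. The ring1ab libraries all lay above the clf28swn7 libraries for 35.6% of tested genes and all below them for 36.8%, so separation without a fold threshold was common. At a log2 of at least 2, 664 genes were higher and 565 lower, at least 3, 179 were higher and 230 lower, and at least 5, 13 were higher and 40 lower. The plot of fold change against level shows where 3 gene lists lie among the tested genes.

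**Figure D1:**
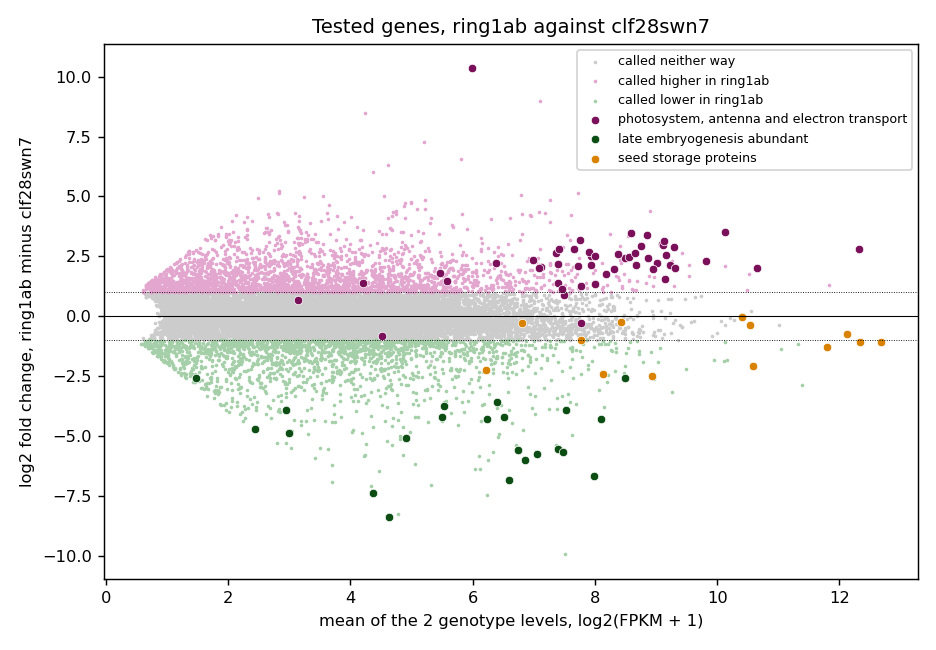
Log2 fold change (ring1ab minus clf28swn7) against the mean of both genotype levels in log2(FPKM + 1), 1 point per tested gene, with dotted lines at a log2 fold change of 1 in size. Genes of photosystems, antennae and electron transport lie mostly above 0. The 22 listed late embryogenesis abundant genes all lie below 0, and the seed storage genes lie nearer to 0 at the highest levels.

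WT levels differed between the directions of change. Among the 2495 genes higher in ring1ab, WT was above both mutants for 1202 (48.2%), between them for 1055 (42.3%) and below both for 238 (9.54%). Among the 1848 genes lower in ring1ab, WT was below both mutants for 1385 (74.9%), between them for 461 (24.9%) and above both for 2. WT lay nearer to ring1ab than to clf28swn7 for 78.2% of the higher genes and 97.8% of the lower genes. The genes that separate the mutants were thus mostly genes at which ring1ab held a level on the WT side of clf28swn7, given here as a description of levels with no test.

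**Figure D2:**
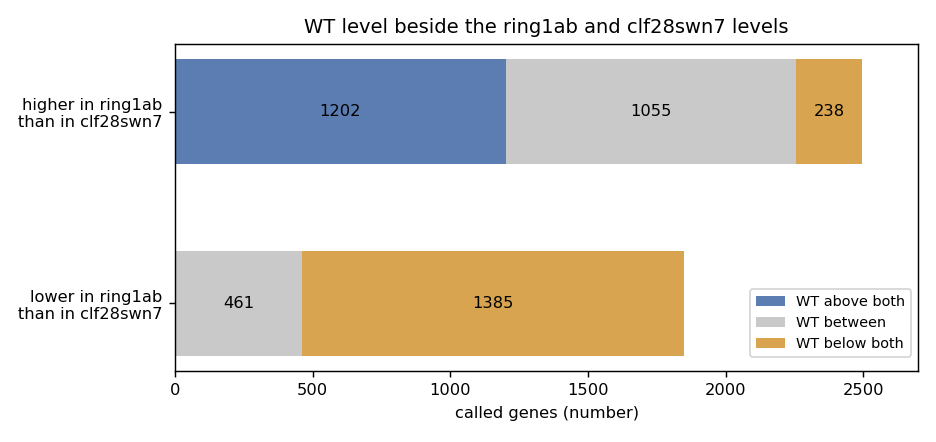
Number of called genes by the place of the mean WT log2(FPKM + 1) beside the 2 mutant means, for genes higher in ring1ab (upper bar) and lower in ring1ab (lower bar). The lower bar is mostly genes with WT below both mutants (1385 of 1848), and its 2 genes with WT above both are too few to be seen.

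The processes were read from 39 gene lists, described by their counts beside the 12.1% higher and 8.99% lower of all tested genes. The plot of list members orders them by median, and their ends are clear: photosynthesis, endodermis and root hair lists lay highest in ring1ab, and late embryogenesis, floral identity and flavonoid lists lay lowest.

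**Figure D3:**
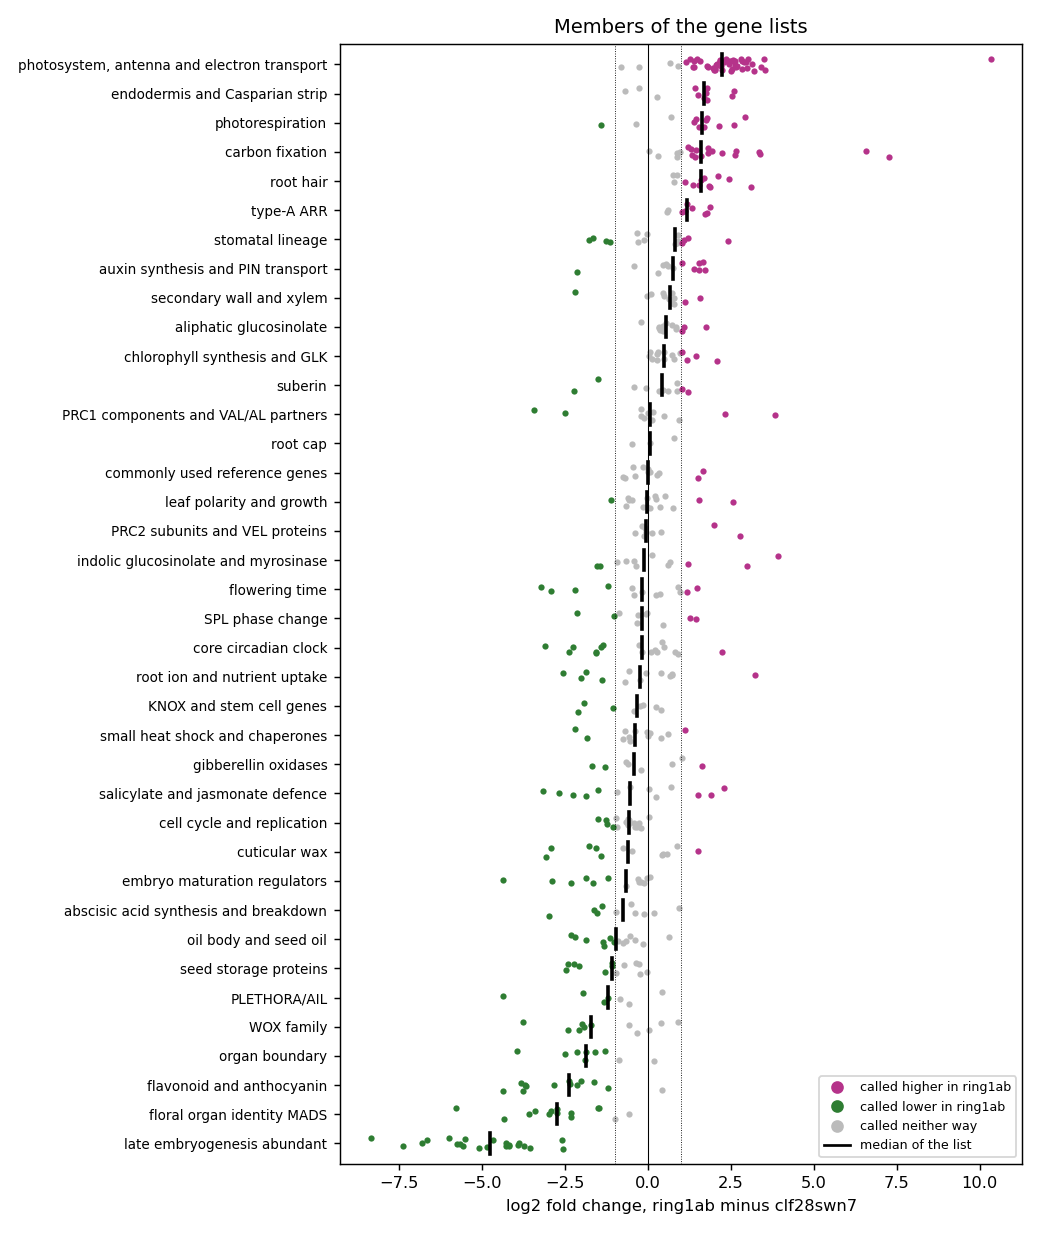
Log2 fold change (ring1ab minus clf28swn7) of each tested member of the gene lists, coloured by call, with a vertical bar at the median of each list and dotted lines at 1 in size. Medians run from 2.22 for photosystem, antenna and electron transport genes at the top to -4.77 for late embryogenesis abundant genes at the bottom, against -0.01 for all tested genes.

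Seed maturation genes formed the largest block that was lower in ring1ab, and it was not lowered evenly. All 22 genes of the late embryogenesis abundant (LEA) list were called lower (median log2 fold change -4.77, range -8.36 to -2.56). Such genes encode hydrophilic proteins that build up as seeds dry. Only 7 of 13 seed storage protein genes were called lower (median -1.08), and 7 of 14 oil body and seed oil genes (median -0.96). Of 13 tested maturation regulators 6 were called lower (median -0.66). No member of these 4 lists was called higher. The LEA list does not stand for all genes of that name. Of 27 tested genes annotated as LEA hydroxyproline-rich glycoproteins, 5 were higher (18.5%) and 2 lower (7.41%), with a median of 0.27.

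GEA6, an Em-type LEA gene (AT2G40170, chr2:16779552-16780368, minus strand), had 0.328, 0.457 and 0.32 FPKM in ring1ab, against 425, 507 and 417 FPKM in clf28swn7 and at most 0.0886 FPKM in WT. Its log2 fold change was -8.36 (SE 0.10, limma adjusted p = 1.87e-07). EM1, the other Em gene, had 6.63, 15.9 and 3.59 FPKM in ring1ab, against 863, 1136 and 861 FPKM in clf28swn7 (log2 fold change -6.82, SE 0.44, limma adjusted p = 2.38e-05). EM1 was listed at 0 in all WT libraries. Both Em genes in ring1ab were far below clf28swn7 and above WT by level. For GEA6 the ring1ab and WT values were all below 1 FPKM, near the floor. M17 had 0.196, 1.13 and 0.477 FPKM in ring1ab, against 217, 243 and 330.1 FPKM in clf28swn7. AT3G02480, the LEA gene with the highest level in clf28swn7, had 24.1, 35.6 and 14.5 FPKM in ring1ab, against 2172, 2756 and 2478 FPKM in clf28swn7. RAB18, a dehydrin induced by abscisic acid, had 59.5, 90.7 and 38.1 FPKM in ring1ab, against 1098, 1238 and 1195 FPKM in clf28swn7. GEA6, EM1, M17 and AT3G02480 were named among the 10 largest changes, for which groups without overlap were a condition. The whole list summed to between 353 and 638 FPKM in ring1ab, between 12340 and 14643 FPKM in clf28swn7 and between 9.74 and 13.3 FPKM in WT.

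Storage protein genes were abundant in both mutants. CRU3, a cruciferin (12S globulin) gene (AT4G28520, chr4:14087556-14089796, plus strand), had 3383, 5978 and 4363 FPKM in ring1ab, against 9077, 9648 and 9803 FPKM in clf28swn7 and between 0.453 and 3.2 FPKM in WT. Its log2 fold change of -1.09 (SE 0.19, limma adjusted p = 0.00233) was small beside that of the Em genes. CRA1, a further cruciferin gene, had 2489, 5074 and 3358 FPKM in ring1ab, against 7042, 7509.8 and 7599.6 FPKM in clf28swn7 (log2 fold change -1.08, SE 0.24, limma adjusted p = 0.00621). The calls of CRU3 and CRA1 rest on ring1ab replicate 1, without which the log2 fold changes were -0.90 for CRU3 and -0.84 for CRA1 and neither was called. The 2S albumin genes differed from each other, with SESA1 at 616, 1084 and 572 FPKM in ring1ab, against 2972, 3008 and 3335 FPKM in clf28swn7. SESA4 had 1108, 1662 and 1250.0 FPKM in ring1ab, against 1656, 1073 and 1406 FPKM in clf28swn7, so its groups overlapped (log2 fold change -0.04, SE 0.20). SESA1 and SESA4 are related neighbours whose reads the counting could have split, which leaves the share of each copy uncertain. Storage genes took between 2.07% and 3.53% of the summed FPKM of a ring1ab library, between 5.14% and 5.75% in clf28swn7 and at most 0.00199% in WT.

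Oil body genes followed the storage genes. OLEO1, encoding the main oleosin that coats oil bodies, had 1075, 1638 and 1230.0 FPKM in ring1ab, against 3066, 3262 and 3745 FPKM in clf28swn7 (log2 fold change -1.37, SE 0.16, limma adjusted p = 0.000378). OLEO2 had 283, 421 and 297 FPKM in ring1ab, against 1440.0, 1521 and 1621 FPKM in clf28swn7 (log2 fold change -2.21). In WT the highest library had 1.01 FPKM of OLEO1 and 0.495 FPKM of OLEO2, so that both mutants stood far above it.

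The regulators of maturation split by identity. ABI5, the bZIP factor that acts in abscisic acid signalling and binds LEA promoters, had 5.29, 3.96 and 3.46 FPKM in ring1ab, against 104, 115 and 100.005 FPKM in clf28swn7 (log2 fold change -4.37, SE 0.14, limma adjusted p = 1.98e-06). ABI4, an AP2-type factor, had 6.58, 10.4 and 7.6 FPKM in ring1ab, against 64.2, 71.4 and 66.6 FPKM in clf28swn7 (log2 fold change -2.92). ABI3, a B3-domain factor that reads the RY element, had 16.4, 20.5 and 15.8 FPKM in ring1ab, against 89.2, 91.8 and 94.1 FPKM in clf28swn7 (log2 fold change -2.33, SE 0.11, limma adjusted p = 7.13e-06). Of the remaining regulators, FUS3, AGL15 and NF-YB6 were closer. FUS3, another B3-domain factor of the same network, had 23.8, 24.9 and 18.7 FPKM in ring1ab, against 35.3, 31.5 and 41.7 FPKM in clf28swn7 and at most 0.139 FPKM in WT, which did not reach the fold threshold (log2 fold change -0.66, SE 0.14). AGL15, a MADS-box factor of embryos, had 15, 19.3 and 14.3 FPKM in ring1ab, against 15.6, 14.6 and 16.4 FPKM in clf28swn7, with overlapping groups. NF-YB6, the gene closest to LEC1, had 13.4, 12.6 and 7.78 FPKM in ring1ab, against 12.8, 10.2 and 10.8 FPKM in clf28swn7, also with overlapping groups. LEC1 itself did not reach the FPKM minimum, and LEC2 was near the floor in ring1ab, at 0.0403, 0 and 0.0398 FPKM, against 2.38, 3 and 2.87 FPKM in clf28swn7. FUS3 thus stood far above WT in both mutants. ABI5 in ring1ab also lay above the WT range of 1.33 to 2.07 FPKM, but far below clf28swn7.

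**Figure D4:**
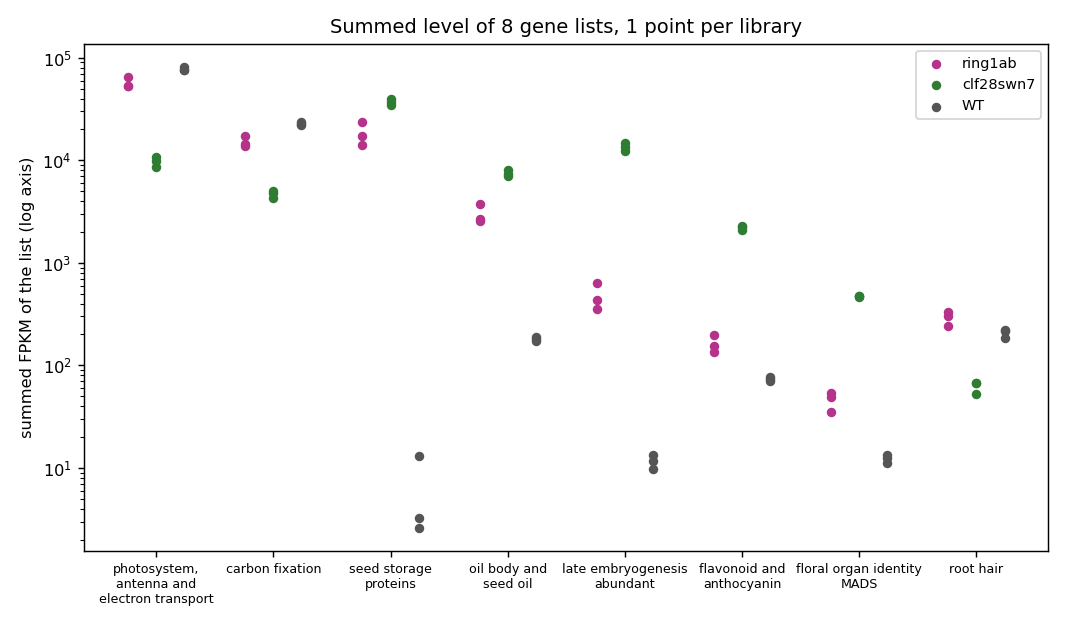
Summed FPKM of 8 gene lists on a log axis, 1 point per library, in the order ring1ab, clf28swn7 and WT within each list. Storage protein genes lie within a factor of 3 between the 2 mutants and far above WT, whereas LEA genes of ring1ab (353 to 638 FPKM) lie far below those of clf28swn7 (12340 to 14643 FPKM).

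The promoters of both kinds of seed gene were read for motifs known from seed and light regulation. Promoters are the 250 bases before the annotated start in the RefSeq annotation of TAIR10.1, found for 19859 tested genes, and a match was counted on either strand. The G-box (CACGTG), read by bZIP factors such as ABI5, was in 30.3% of promoters of genes lower in ring1ab by a log2 of at least 3 and in 13.7% of those of all genes called lower, against 6.58% of all 26711 promoters. The RY element (CATGCA) was in 22.2% and 13.6% of the same sets, against 8.51% of all promoters. It was also in 13.2% of promoters of genes higher by a log2 of at least 3 and in 10.6% of those called higher. Among the 22 LEA promoters 16 held a G-box (72.7%) and 4 an RY element (18.2%), while among the 13 storage protein promoters 8 held a G-box (61.5%) and 11 an RY element (84.6%). In the 51 photosystem list promoters, most of whose genes were higher in ring1ab, the G-box was also found in 19.6%. The I-box (GATAAG), a motif of light-regulated genes, was in 21.6% of promoters of genes higher in ring1ab by a log2 of at least 3 and in 23.5% of the photosystem list promoters, against 12.2% of all promoters. The telobox (AAACCCTA) was in 2.38% of promoters of genes called higher and 3.23% of those called lower, against 4.44% of all promoters. The evening element (AAAATATCT) was in 2.21% and 4.19% of these sets, against 2.4% of all promoters, and a GAGA repeat (GAGAGAGA) in 3.75% and 4.41%, against 4.87%. Among promoters of tested genes, from which all called genes come, the G-box was in 7.58% and the RY element in 8.02%. In these promoters the I-box was in 12.4%, the telobox in 3.57%, the evening element in 2.5% and the GAGA repeat in 4.6%. A match says only that the letters are present. The promoters of an LEA gene, a storage protein gene and an antenna gene follow. They are written 5′ to 3′ on the gene's strand, with the G-box or RY element in capitals. They show the G-box of GEA6 close to its start (chr2:16780369-16780618, minus strand), the RY element of CRU3 (chr4:14087306-14087555, plus strand), and LHB1B1, the gene with the largest positive fold change (chr2:14524357-14524606, plus strand), in whose window no G-box, RY element or I-box was found. The promoter of EM1, the other Em gene, also held none of these motifs. That of CA1, a carbon fixation gene called higher in ring1ab, held 1 RY element.
GEA6: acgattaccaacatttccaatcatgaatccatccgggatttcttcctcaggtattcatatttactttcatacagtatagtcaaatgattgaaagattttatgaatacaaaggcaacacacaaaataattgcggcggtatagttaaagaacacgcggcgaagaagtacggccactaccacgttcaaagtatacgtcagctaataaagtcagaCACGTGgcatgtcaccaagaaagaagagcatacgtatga
CRU3: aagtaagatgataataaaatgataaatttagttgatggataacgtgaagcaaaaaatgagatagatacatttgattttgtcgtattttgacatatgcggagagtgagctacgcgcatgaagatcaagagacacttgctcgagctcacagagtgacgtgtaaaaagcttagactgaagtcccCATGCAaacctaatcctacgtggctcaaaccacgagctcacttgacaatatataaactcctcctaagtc
LHB1B1: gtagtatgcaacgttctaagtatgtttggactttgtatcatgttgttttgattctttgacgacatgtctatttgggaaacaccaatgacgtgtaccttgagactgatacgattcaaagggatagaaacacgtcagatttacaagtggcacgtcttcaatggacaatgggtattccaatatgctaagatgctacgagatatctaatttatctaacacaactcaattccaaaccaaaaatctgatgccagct

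Genes of photosynthesis formed the block that was highest in ring1ab. Of 51 nuclear genes of photosystems, light-harvesting antennae and electron transport 47 were called higher and none lower, with a median log2 fold change of 2.22. The list summed to between 52457 and 64950 FPKM in ring1ab, between 8559 and 10853 FPKM in clf28swn7 and between 75663 and 81255 FPKM in WT. The 4 members called neither way were LHCB2.1 (0.91), Lhca6 (0.66), NPQ4 (-0.27) and LHCB4.3 (-0.83).

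LHB1B1, a gene of the main light-harvesting chlorophyll-binding protein of photosystem II (AT2G34430, chr2:14524607-14525918, plus strand), had 2723, 1845 and 2287 FPKM in ring1ab, against 0.859, 1.07 and 0.347 FPKM in clf28swn7 and between 3217 and 3529 FPKM in WT. Its log2 fold change was 10.35 (SE 0.20, limma adjusted p = 9.56e-07). LHB1B2, its near-identical neighbour, had 4240.0, 3300.1 and 3845 FPKM in ring1ab, against 382, 283 and 324 FPKM in clf28swn7 (log2 fold change 3.52, SE 0.14, limma adjusted p = 4.24e-06). CAB1, the most abundant antenna gene, had 14989, 11997 and 13270.2 FPKM in ring1ab, against 2122, 1688 and 2022 FPKM in clf28swn7 (log2 fold change 2.79). The groups did not overlap in any of the 3, and LHB1B1 was alone among them in being near 0 in clf28swn7. Reads of these near-identical genes could have been shared among copies by the counting, so the value of each copy is uncertain.

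In carbon fixation 16 of 21 genes were called higher and none lower (median 1.60). Carbonic anhydrases, which interconvert carbon dioxide and bicarbonate, stood out. CA2 had 572, 373 and 415 FPKM in ring1ab, against 1.83, 1.47 and 2.59 FPKM in clf28swn7 (log2 fold change 7.25, SE 0.20, limma adjusted p = 1.34e-06). CA1 had 773, 433 and 441 FPKM in ring1ab, against 6.42, 4.14 and 3.69 FPKM in clf28swn7 (log2 fold change 6.55, SE 0.27, limma adjusted p = 4.67e-06). RBCS1A, the main gene of the Rubisco small subunit, was far less apart, with 6626, 5305 and 5299.9 FPKM in ring1ab, against 2440.2, 2090.1 and 2445 FPKM in clf28swn7 (log2 fold change 1.30, SE 0.12). The RBCS1B, RBCS2B and RBCS3B copies, neighbours that share much of their sequence, had log2 fold changes of 3.37, 3.35 and 2.63.

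Photorespiration, the salvage of the product of Rubisco's oxygenase reaction, had 9 of 12 genes called higher (median 1.61). AGT, the peroxisomal aminotransferase of the pathway, had 659, 387 and 432 FPKM in ring1ab, against 76.6, 50.2 and 64.9 FPKM in clf28swn7 (log2 fold change 2.91, SE 0.23). CAT2, a catalase, was the exception, with 189, 189 and 183 FPKM in ring1ab, against 503, 493 and 505 FPKM in clf28swn7 (log2 fold change -1.41, SE 0.06, limma adjusted p = 6.94e-06). Chlorophyll synthesis was less apart than the proteins that bind chlorophyll, with 4 of 15 tested genes called higher (median 0.49). GPRI1, also known as GLK1, a factor that activates photosynthesis genes, had 49.2, 65.2 and 57.1 FPKM in ring1ab, against 20.7, 19.1 and 21.3 FPKM in clf28swn7 (log2 fold change 1.44, SE 0.11), while its partner GLK2 overlapped between the groups (0.02, SE 0.22).

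**Figure D5:**
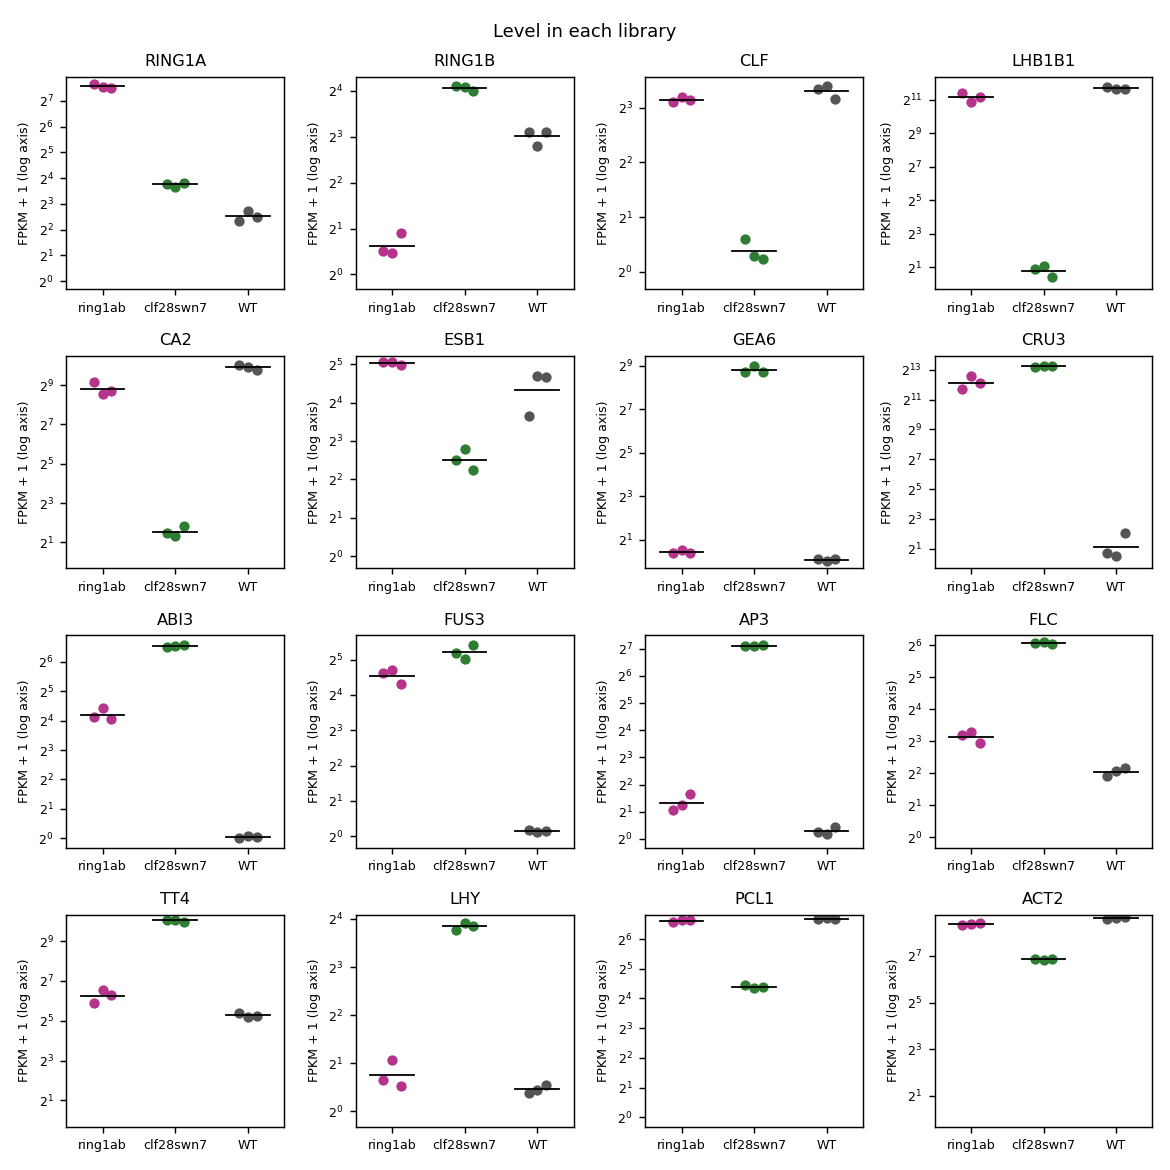
FPKM + 1 on a log axis for 16 genes in each library of ring1ab, clf28swn7 and WT, with a line at the mean of the log2 values. RING1A is highest in ring1ab, LHB1B1 and CA2 are near 0 in clf28swn7 alone, CRU3, ABI3 and FUS3 are high in both mutants and near 0 in WT, and GEA6, AP3 and LHY are high in clf28swn7 alone.

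Among the genes with the largest positive fold changes, several belonged to no photosynthesis list. AT3G05730, a defensin-like gene, had 3043, 3709 and 2206 FPKM in ring1ab, against 8.57, 4.92 and 2.37 FPKM in clf28swn7 and between 379 and 499 FPKM in WT, so ring1ab lay above both (log2 fold change 8.99, SE 0.38). AT3G16670, annotated as a pollen Ole e 1 allergen and extensin family protein, had 343, 360.0 and 359 FPKM in ring1ab and was listed at 0 in all clf28swn7 libraries, with between 189 and 219 FPKM in WT. AT3G16660, a gene of the same annotation close by on chromosome 3, had 218, 265 and 167 FPKM in ring1ab, against 2.22, 1.09 and 1.86 FPKM in clf28swn7. All 3 were also higher in ring1ab than in WT by level. ASN1, an asparagine synthetase known to be repressed by light and sugar, varied among replicates, with 292, 76.7 and 158 FPKM in ring1ab, against 1.88, 1.38 and 0.946 FPKM in clf28swn7 (log2 fold change 6.02, SE 0.45, limma adjusted p = 4.43e-05). HBI1, a bHLH factor, had 36, 44.1 and 48.1 FPKM in ring1ab, against 0.229, 0.0542 and 0.188 FPKM in clf28swn7. RGF9, a peptide of the root meristem growth factor family, had 44.4, 43.3 and 35.3 FPKM in ring1ab, against 0.475, 0.113 and 0 FPKM in clf28swn7. AT2G45180, annotated in the lipid-transfer and 2S albumin superfamily, had 1387, 1286 and 1091 FPKM in ring1ab, against 37.8, 30 and 35.5 FPKM in clf28swn7. Groups without overlap were a condition for naming these genes, so their separation is no further result.

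At the other end, AT1G68250, a gene of unknown function, had 6.88, 9.39 and 0.636 FPKM in ring1ab, against 5298, 5164 and 4672 FPKM in clf28swn7 and at most 0.0602 FPKM in WT. Its log2 fold change was -9.94 (SE 0.64, limma adjusted p = 2.46e-05), and -9.12 without ring1ab replicate 3, which was the lowest. LCR67, of a family of small cysteine-rich proteins, had 1.24, 0.434 and 0.122 FPKM in ring1ab, against 369, 500.1 and 531 FPKM in clf28swn7. EPR1, a proline-rich extensin, had 3.2, 2.98 and 8.38 FPKM in ring1ab, against 979.8, 724 and 1197 FPKM in clf28swn7. Of the 10 genes with the largest negative fold changes, 4 were annotated as LEA proteins (M17, AT4G36600, AT3G53040 and AT3G02480), and GEA6 and EM1 were members of the LEA list annotated as stress induced proteins. AT1G47980, annotated as a desiccation-like protein, had 0, 0.243 and 0.273 FPKM in ring1ab, against 127, 126 and 177 FPKM in clf28swn7. All 10 were below 3 FPKM in every WT library.

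Floral organ identity MADS genes specify sepals, petals, stamens and carpels. They were low in ring1ab, with 12 of 14 tested genes called lower and none higher (median -2.75). Members below 1 FPKM in ring1ab, such as AG, were tested only through their clf28swn7 level. AP3, the petal and stamen gene, had 1.11, 1.39 and 2.15 FPKM in ring1ab, against 137, 137 and 140.3 FPKM in clf28swn7 (log2 fold change -5.79, SE 0.15, limma adjusted p = 1.15e-06). PI, the partner of AP3, had 11.6, 9.65 and 12.3 FPKM in ring1ab, against 127, 127 and 127 FPKM in clf28swn7 and at most 0.955 FPKM in WT (log2 fold change -3.40, SE 0.10). AG, the stamen and carpel gene, had 0.194, 0.343 and 0.29 FPKM in ring1ab, against 15.9, 13 and 14.3 FPKM in clf28swn7, and its ring1ab values lay in or near the WT range of 0.167 to 0.337 FPKM (log2 fold change -3.59, SE 0.10, limma adjusted p = 1.31e-06). SEP3, a cofactor of these factors, was less apart than AP3, PI and AG, with 10.3, 18.6 and 20.7 FPKM in ring1ab, against 47.5, 44.9 and 48.9 FPKM in clf28swn7 (log2 fold change -1.51, SE 0.24). AG was thus near the WT level in ring1ab, whereas PI and SEP3 lay between WT and clf28swn7.

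Regulators of flowering time went both ways, with 2 of 13 tested genes called higher and 4 lower. FLC, the MADS-box repressor of flowering that PRC2 silences in the cold, had 8.21, 8.82 and 6.76 FPKM in ring1ab, against 66.5, 67.7 and 64.5 FPKM in clf28swn7 (log2 fold change -2.92, SE 0.10, limma adjusted p = 2.72e-06). AGL24, a promoter of flowering, had 2.29, 3.41 and 3.23 FPKM in ring1ab, against 32.5, 37.9 and 37.1 FPKM in clf28swn7 (log2 fold change -3.22). SVP, a repressor that acts with FLC, had 38.9, 42.9 and 48.9 FPKM in ring1ab, against 14.8, 15 and 15.6 FPKM in clf28swn7 (log2 fold change 1.46, SE 0.10). Repressors were therefore found on both sides. AGL20, better known as SOC1, an integrator of flowering signals, had 14, 10.2 and 12.4 FPKM in ring1ab, against 10.6, 8.25 and 9.16 FPKM in clf28swn7, with overlapping groups (log2 fold change 0.35, SE 0.14, limma adjusted p = 0.0579). Of 10 SPL genes, which drive the change from juvenile to adult leaves, 2 were called higher and 2 lower, with SPL3 at 1.46 and SPL4 at -2.16. The 6 genes of the endosperm list did not reach the FPKM minimum.

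Genes of meristems, embryos and organ boundaries were called lower in ring1ab or not at all. Of 11 tested WOX homeobox genes 6 were called lower (median -1.73), as were 4 of 7 PLETHORA/AIL genes (median -1.20), 7 of 9 boundary genes (median -1.88) and 3 of 8 KNOX and stem cell genes (median -0.35). None of the 4 lists had a member called higher. HB-3, also known as WOX9 or STIMPY, had 0.728, 1.02 and 1.52 FPKM in ring1ab, against 28.2, 25.2 and 28.9 FPKM in clf28swn7 (log2 fold change -3.78, SE 0.14, limma adjusted p = 3.8e-06). WOX5, which marks the quiescent centre of the root, had 3.46, 4.08 and 4.7 FPKM in ring1ab, against 15, 21.8 and 11.9 FPKM in clf28swn7 (log2 fold change -1.73, SE 0.21). AIL5, which is PLT5, had 28.8, 35.3 and 27.1 FPKM in ring1ab, against 116, 127 and 116 FPKM in clf28swn7 and at most 2.46 FPKM in WT (log2 fold change -1.95, SE 0.11, limma adjusted p = 1.55e-05). AIL5 was high in both mutants beside WT. STM, which maintains the shoot meristem, had 7.01, 8.91 and 6.73 FPKM in ring1ab, against 32.4, 32.6 and 30.6 FPKM in clf28swn7 (log2 fold change -1.95, SE 0.11). KNAT1 had a log2 fold change of -2.13, and KNAT6 one of -1.07, which without ring1ab replicate 1 was -0.96 and not called. MYB37, also known as RAX1, a factor of axillary meristems, had 0.622, 0.956 and 0.763 FPKM in ring1ab, against 24.8, 27.5 and 28.3 FPKM in clf28swn7 (log2 fold change -3.97). CUC2, a NAC factor of organ boundaries, had 1.82, 2.94 and 1.56 FPKM in ring1ab, against 17, 14.3 and 18 FPKM in clf28swn7 (log2 fold change -2.51), while BOP2 overlapped between the groups (0.18, SE 0.11).

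Leaf polarity genes were mostly alike in level, with 2 of 17 called higher and 1 lower (median -0.03). YAB5, a YABBY factor of leaf blades, was the main exception, with 20.9, 18.5 and 18.2 FPKM in ring1ab, against 2.58, 2.22 and 2.44 FPKM in clf28swn7 (log2 fold change 2.57, SE 0.09, limma adjusted p = 2.44e-06). In the stomatal lineage 4 of 17 genes were called higher and 4 lower. FMA, which acts in the last division to guard cells, had 12.1, 11.6 and 12.6 FPKM in ring1ab, against 1.52, 1.37 and 1.54 FPKM in clf28swn7 (log2 fold change 2.41, SE 0.07, limma adjusted p = 1.79e-06). MUTE, which acts in the step before, had 0.666, 0.252 and 0.373 FPKM in ring1ab, against 2.97, 4.81 and 3.94 FPKM in clf28swn7 (log2 fold change -1.77, SE 0.17), and ICE1, the partner of both, had a log2 fold change of -1.67. The late gene of the lineage and the earlier one thus lay on opposite sides. Cell cycle genes leaned lower in ring1ab, with 4 of 21 called (median -0.59), led by CDKB1;1 (-1.53) and MCM2 (-1.28), a kinase of dividing cells and a subunit of the replicative helicase.

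Root genes differed by tissue. Of 13 tested root hair genes 10 were called higher and none lower (median 1.59), and of 11 endodermis and Casparian strip genes 8 were called higher and none lower (median 1.70), whereas none of the 3 tested root cap genes was called. PRP3, a proline-rich wall protein of root hairs, had 118, 153 and 166 FPKM in ring1ab, against 29.4, 20.6 and 29.2 FPKM in clf28swn7 (log2 fold change 2.42, SE 0.18). RSL4, the bHLH factor that sets root hair growth, had 4.27, 4.06 and 3.02 FPKM in ring1ab, against 0.632, 0.418 and 0.679 FPKM in clf28swn7 (log2 fold change 1.59, SE 0.13). ESB1, a dirigent protein of the Casparian strip, had 32.2, 32.5 and 30.6 FPKM in ring1ab, against 4.67, 5.88 and 3.7 FPKM in clf28swn7 (log2 fold change 2.53, SE 0.14, limma adjusted p = 1.31e-05). CASP1, a scaffold protein of the strip, had a log2 fold change of 1.76. SCR, which specifies the endodermis, did not go with its later genes, with 25.1, 27.9 and 26.2 FPKM in ring1ab, against 43, 46.4 and 42.3 FPKM in clf28swn7 (log2 fold change -0.71, SE 0.08), short of the fold threshold. Transporters of the root went both ways, with 1 of 13 tested called higher and 4 lower. NRT1.5, which loads nitrate into the xylem, had 46.4, 44.8 and 45 FPKM in ring1ab, against 3.5, 4.08 and 4.53 FPKM in clf28swn7 (log2 fold change 3.21, SE 0.09). SULTR1;2, a sulfate uptake transporter, had 20.3, 29.3 and 32.4 FPKM in ring1ab, against 189.6, 165 and 137 FPKM in clf28swn7 (log2 fold change -2.56, SE 0.19).

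Surface lipids and walls gave mixed counts. Of 12 tested cuticular wax genes 5 were called lower and 1 higher (median -0.62). CER1, which acts in alkane synthesis, had 9.14, 11.2 and 15.7 FPKM in ring1ab, against 107, 109 and 103 FPKM in clf28swn7 (log2 fold change -3.07, SE 0.17, limma adjusted p = 1.5e-05). KCS6, an elongase of wax precursors, went against it, with 212, 269.8 and 284 FPKM in ring1ab, against 84.5, 88.6 and 92 FPKM in clf28swn7 (log2 fold change 1.51). Of 12 suberin genes 2 were called higher and 2 lower. Of 12 tested genes of secondary walls and xylem 2 were called higher and 1 lower, the last being NST1, a NAC factor of fibre walls, listed at 0 in all ring1ab libraries, against 3.51, 3.32 and 4.21 FPKM in clf28swn7.

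Hormone lists differed in direction. Of 8 tested gibberellin oxidase genes 1 was called higher and 2 lower (median -0.41). Of 9 tested type-A ARR genes, which respond to cytokinin and dampen its signal, 7 were called higher and none lower (median 1.17), and between 5 and 7 were called when any 1 library was left out and 4 with a minimum FPKM of 5. ARR4 had 70.5, 48.1 and 50.6 FPKM in ring1ab, against 20.9, 21.1 and 23 FPKM in clf28swn7 (log2 fold change 1.32, SE 0.15). ARR7 had 65.5, 15.3 and 16.2 FPKM in ring1ab, against 7.01, 7.51 and 6.92 FPKM in clf28swn7 (log2 fold change 1.70, SE 0.51, limma adjusted p = 0.023), and its log2 fold change was 1.04 without ring1ab replicate 1. That replicate was the highest ring1ab library at 6 of the 7 called members, among them RR5 (25.9, 10.7 and 13.2 FPKM in ring1ab) and ARR6 (37, 17.5 and 21.8 FPKM in ring1ab). It also stood apart at genes of other hormones, for example with 147, 39 and 62.8 FPKM of JAZ1, a jasmonate repressor, 49.1, 9.04 and 13.1 FPKM of GA2OX6, which inactivates gibberellin, and 20.6, 6.64 and 7.63 FPKM of CYP707A1, which breaks down abscisic acid, in ring1ab. Their clf28swn7 libraries held between 40.9 and 48.1, between 7.22 and 9.09 and between 31.3 and 32.2 FPKM of these genes in the same order. JAZ1 and GA2OX6 were not called, and CYP707A1 was called lower (log2 fold change -1.54, SE 0.37), at -2.01 without ring1ab replicate 1. In auxin synthesis and PIN transport 6 of 13 tested genes were called higher and 1 lower (median 0.76). PIN3, an auxin efflux carrier, had 52.8, 61.5 and 73.2 FPKM in ring1ab, against 17.7, 18.4 and 18.4 FPKM in clf28swn7 (log2 fold change 1.72, SE 0.12). YUC4, an auxin synthesis gene, was the member called lower, with 2.19, 3.04 and 2.21 FPKM in ring1ab, against 14.9, 13.1 and 15.1 FPKM in clf28swn7 (log2 fold change -2.15). Of 10 tested genes of abscisic acid synthesis and breakdown 4 were called lower and none higher (median -0.75), among them the synthesis gene ABA1 (-1.63) and the breakdown gene CYP707A2 (-2.98).

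Flavonoid genes were low in ring1ab, with 12 of 13 tested genes called lower and none higher (median -2.38). TT4, chalcone synthase, the entry enzyme of the pathway, had 58.9, 92.1 and 78.2 FPKM in ring1ab, against 1081, 1053 and 1006 FPKM in clf28swn7 (log2 fold change -3.78, SE 0.16, limma adjusted p = 5e-06). TT7, flavonoid 3'-hydroxylase, had 8.13, 10.4 and 8.14 FPKM in ring1ab, against 195, 208 and 213 FPKM in clf28swn7 (log2 fold change -4.39, SE 0.11). PAP1, a MYB factor of anthocyanin synthesis, had 0.116, 0.0508 and 0 FPKM in ring1ab, against 4.5, 2.33 and 3.31 FPKM in clf28swn7. MYB111, an activator of flavonol synthesis, was the tested member not called, and its groups overlapped (0.41, SE 0.19). Several members, such as the late anthocyanin genes DFR, LDOX and UF3GT, stayed low also in clf28swn7, and with a minimum FPKM of 5 in place of 1 the number called lower was 7.

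In the circadian clock 7 of 17 genes were called lower and 1 higher. LHY, a morning factor, had 0.568, 1.08 and 0.445 FPKM in ring1ab, against 12.6, 14.1 and 13.5 FPKM in clf28swn7 (log2 fold change -3.10, SE 0.14, limma adjusted p = 6.94e-06). CCA1, its partner, had 0.861, 1.38 and 0.501 FPKM in ring1ab, against 9.07, 7.23 and 7.91 FPKM in clf28swn7 (log2 fold change -2.26). PCL1, also known as LUX, an evening factor, had 93.7, 98.6 and 98.5 FPKM in ring1ab, against 20.9, 19.2 and 19.8 FPKM in clf28swn7 (log2 fold change 2.22, SE 0.07). Morning genes were thus lower and the evening gene PCL1 higher in ring1ab, at levels within or near those of WT for LHY (0.299 to 0.459 FPKM) and PCL1 (100.2 to 103 FPKM). The hour of collection was not given in the sources used here.

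Defence genes had no common direction. Of 13 tested salicylate and jasmonate genes 3 were called higher and 5 lower. VSP1, a vegetative storage protein induced by jasmonate, had 7.23, 11.8 and 11.8 FPKM in ring1ab, against 118, 95.4 and 87.3 FPKM in clf28swn7 (log2 fold change -3.19, SE 0.20, limma adjusted p = 2.28e-05). AOC1, an enzyme of jasmonate synthesis, had 23.3, 40.8 and 52.4 FPKM in ring1ab, against 5.94, 6.38 and 8.26 FPKM in clf28swn7 (log2 fold change 2.28, SE 0.28). TGG1, a myrosinase of guard cells and myrosin cells, had 643, 541 and 612 FPKM in ring1ab, against 36.2, 40.4 and 39 FPKM in clf28swn7 and between 1686 and 1824 FPKM in WT (log2 fold change 3.92, SE 0.09, limma adjusted p = 1.05e-06). TGG2 had a log2 fold change of 2.98, and the glucosinolate lists otherwise held few calls, with 3 of 13 aliphatic genes higher and, among 12 indolic and myrosinase genes, 3 higher and 2 lower. Small heat shock and chaperone genes had 1 of 13 tested called higher and 2 lower.

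Of the 12 genes of the PRC1 list, RING1A and AT3G23060 were called higher, and RING1B and EMF1 lower. EMF1, a plant-specific protein of the PcG system, had 8.68, 8.77 and 8.66 FPKM in ring1ab, against 56, 53.4 and 52.6 FPKM in clf28swn7 and between 7.31 and 8.79 FPKM in WT (log2 fold change -2.50, SE 0.07, limma adjusted p = 1.3e-06). AT3G23060, placed with the PRC1 list, had 4.28, 6.68 and 6.1 FPKM in ring1ab, against 0.119, 0.572 and 0.35 FPKM in clf28swn7 and at most 0.271 FPKM in WT (log2 fold change 2.31, SE 0.18). DRIP2, a RING protein also known as BMI1A, had 16.8, 18.3 and 17.7 FPKM in ring1ab, against 9.5, 8.88 and 7.99 FPKM in clf28swn7, which did not reach the threshold (log2 fold change 0.93, SE 0.08). Of the 9 tested PRC2 and VEL genes, CLF and SWN were the ones called, and the other 7 had log2 fold changes between -0.39 and 0.39. Genes in the study's group with H3K27me3 and no H2AK121ub in WT, of which 298 were tested, had 66 members higher (22.1%) and 71 lower (23.8%), with a median of -0.06. The other 1095 of its 1393 members did not reach the FPKM minimum, and a silent gene reaches it only through the genotype where it is high. Of all 1393 members 4.74% were higher and 5.1% lower, against 7.43% and 5.5% of all 33602 genes in the table.

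Genes often used as a reference were not all even. PP2AA3, a subunit of protein phosphatase 2A, had 30.8, 31.1 and 30.7 FPKM in ring1ab, against 30.1, 31.9 and 30.8 FPKM in clf28swn7, with overlapping groups. ACT2 had 323, 324 and 337 FPKM in ring1ab, against 115, 111 and 117 FPKM in clf28swn7 (log2 fold change 1.51, SE 0.07, limma adjusted p = 6.11e-06), and ACT8 had a log2 fold change of 1.65. These were the 2 of 12 tested genes of the list that were called, actin genes both, and the list's median was -0.01.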

How the data were processed

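RNA of whole seedlings was sequenced in 12 libraries of 4 genotypes, of which the 6 of ring1ab and clf28swn7 were compared and the 3 of WT were read beside them. The deposited values are FPKM per gene, which the authors made by HISAT2 alignment to TAIR10 followed by StringTie and ballgown, with versions, filters and strand use not given in the sources used here. The labels name polyA RNA but the kit is one for total RNA, so how far organelle transcripts were selected against is not known. Genes reaching 1 FPKM in 3 or more of the 6 libraries were kept, a pseudocount of 1 was added, and log2 values were fitted with limma 3.58.1 in R 4.3.3 across 20551 genes with Benjamini-Hochberg adjustment. Depth is not in the table and was estimated from the FPKM steps of genes with 1 exon and 1 transcript. FPKM is relative within a library, so an abundant group of transcripts lowers the values of all others. Gene names, products and promoter sequences came from the RefSeq annotation of TAIR10.1. The fit was tested on simulated data. Named genes were the mutated genes, the 10 largest called changes in each direction without overlap between the genotypes, PLT5, SOC1 and AG, and, from each of 39 gene lists, the 3 called members with the largest changes, the called member that most opposed the majority and the 2 most abundant members. Other list members named in the text, such as members called neither way and those at which 1 replicate stood apart, were chosen after their values were seen. The comparison and the lists were chosen with earlier results of these data known. Alternatives were another pseudocount, other FPKM minimums, other scalings, a fit of all 12 libraries, a variance trend, a replicate block and leaving out each library.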

Additional observations from a re-analysis of the deposited data

How the results depend on the processing

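The counts of genes called stayed within 1.5 times the reported 2495 higher and 1848 lower under every alternative tried, and no gene or count that was called changed direction. Of the named genes 6 changed sign under some alternative, none of them with a reported log2 fold change of 1 or more in size, and so did the medians of 8 lists, among them the stomatal list (-0.30) and the suberin list (-0.07) with a minimum FPKM of 5. Over all lists and alternatives, 25 values of a list median, from 17 lists, moved beyond their spread and 468 did not. The counts of genes called higher and lower were 3022 and 2288 with a pseudocount of 0.1, and 1833 and 1506 with a minimum FPKM of 5. When 1 library was left out, between 2436 and 2558 genes were higher and between 1817 and 1982 lower. After rescaling without the abundant lists and organelle genes, the counts were 2722 and 1651. That rescaling moved the median of all tested genes to 0.069. After each genotype's mean log2(FPKM + 1) was subtracted from every gene, same-numbered libraries of the 2 genotypes correlated at 0.004, -0.007 and 0.006. These deviations showed no pairing by replicate number, and a replicate block gave 2500 genes higher and 1850 lower. With a minimum FPKM of 5, 4 type-A ARR genes were higher and 7 flavonoid genes lower. As shares of all 1393 genes with H3K27me3 alone, 4.74% were higher and 5.1% lower, against 7.43% and 5.5% of all genes in the table. At a log2 of at least 3, promoters of higher genes held the RY element in 13.2%, the G-box in 4.79%, the telobox in 3.59%, the evening element in 3.59%, the I-box in 21.6% and the GAGA repeat in 1.8%, and promoters of lower genes held the RY element in 22.2%, the G-box in 30.3% and the telobox in 4.98%. Depth was an estimate, and genes near 0 FPKM in clf28swn7 were read at the lower depth.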

Other observations

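Gene families named by their RefSeq product, of at least 20 tested members, showed further groups, chosen after their values were seen. Of 53 SAUR-like auxin-responsive genes, small genes that respond to auxin during growth, 27 were higher in ring1ab (50.9%) and 1 was lower, with a median log2 fold change of 1.02. Of 21 dirigent-like genes 12 were higher (57.1%) and 3 lower. Of 26 NPH3 family genes, the family of a phototropism protein, 11 were higher and none lower, and of 48 TIR-NBS-LRR genes, a class of disease resistance receptors, 13 were higher and none lower. Of 56 peroxidase genes 22 were higher and 7 lower. The AP2/B3-like family leaned the other way, with 3 of 28 higher and 11 lower (39.3%). These stand beside 12.1% higher and 8.99% lower of all tested genes.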
